A study of Mus musculus with 6 samples.

Results

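The interleukin-1 genes examined here are 6 of the 22800 gene symbols in the deposited table: the agonist cytokines Il1a and Il1b, the receptor antagonist Il1rn, the related cytokine Il18, its soluble binding protein Il18bp and the shared receptor chain Il1rap. They were chosen by symbol, with earlier results of these data known. All 6 were found and were expressed highly enough to be tested. RNA was sequenced from cells of bronchoalveolar lavage fluid, the fluid with which airways and alveoli are rinsed, of mice given vehicle (n = 3, replicates 2, 3 and 4) or sulfatide (n = 3, replicates 1, 2 and 3). Sulfatide, a sulfated glycolipid of myelin that CD1d can present to type II natural killer T cells, was given as 20 µg into the peritoneal cavity. The labels name no strain, age or sex and do not say whether either group underwent the lung ischemia and reperfusion named in the title of the series. Nor do they say that each library is from a different animal, and the p-values below reflect no more than the scatter among these 6 libraries, part of which may be technical.

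Interleukin-1 alpha and beta bind one receptor, which then recruits the accessory chain encoded by Il1rap and signals through the adaptor MyD88 and the IRAK kinases to NF-kappaB. The protein encoded by Il1rn occupies the same receptor without recruiting the accessory chain and so blocks both agonists. Interleukin-1 beta and interleukin-18 are made as inactive precursors that caspase-1 cleaves in the inflammasome, and the protein encoded by Il18bp captures mature interleukin-18 outside the cell. Macrophages are a main source of these cytokines in the lung.

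Levels are given in FPKM, fragments scaled to transcript length and to library size, which can be compared between genes. Each library's FPKM added up to 1126779 to 1168474 (vehicle) or 1217971 to 1249691 (sulfatide), and depth relative to vehicle replicate 2, estimated from low FPKM values, was 0.849 to 1.20. Of 6 genes of macrophages, all were tested and none passed. Adgre1 and Cd68 were at 384.84 to 700.74 FPKM, Csf1r at 573.25 to 914.87 and Lyz2 at 25050.7 to 35890.83. Fcgr1 was at 257.88 to 637.95 FPKM (log2 fold change -0.63, adjusted p = 0.129 by limma) and Mertk at only 2.13 to 4.22. Of 8 genes typical of alveolar macrophages, 4 stayed below 1 FPKM in all libraries, among them Siglecf and Car4, and Fabp1 and Krt79 were listed at 0 throughout. The other 4 were tested and none passed. Marco was at 59.96 to 182.65 FPKM, Chil3 at 19.32 to 45.62, Ear2 at 2.19 to 3.35 and Pparg at 0.50 to 1.17. The summed level of 8 neutrophil genes was 167 to 231 FPKM in vehicle and 456 to 627 in sulfatide, and most of the difference was S100a8, at 91.7 to 114 and 361 to 471 FPKM. Of the 4 genes of this list that were tested, S100a8 and Mmp8 were higher by limma (adjusted p = 3.33e-05 and 0.0439), and Csf3r and S100a9, the partner of S100a8, did not pass (log2 fold changes 0.33 and -0.15, adjusted p = 0.144 and 0.804). Ly6g and Cxcr2, which define neutrophils, reached at most 0.18 and 0.12 FPKM. Of 6 dendritic cell genes, 5 stayed below 1 FPKM, and Cd209a was listed at 0 in vehicle and at 1.19 to 2.59 FPKM in sulfatide. Pdgfrb, a stromal gene, was at 5.89 to 6.93 FPKM in vehicle and at 1.62 to 2.03 FPKM in sulfatide (log2 fold change -1.37, adjusted p = 0.000137), 1 of 3 genes tested of 6 for endothelium and stroma. The part of these marker gene differences in the results below was not tested. In bulk RNA, fewer cells that express a gene and less RNA per cell cannot be told apart.

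Il1a, Il1b and Il1rn lie on mouse chromosome 2 (coordinates of build GRCm38.p6, the same assembly as mm10). Il1a (129299609 to 129310186) and Il1b (129364569 to 129371164) are neighbours separated by 54.4 kb, whereas Il1rn (24336860 to 24351491) lies 105 Mb away beside other ligand genes of the family. Il18 is on chromosome 9 (50554700 to 50581841), Il18bp on chromosome 7 (102015074 to 102018232) and Il1rap on chromosome 16 (26581509 to 26730128). The 250 bases before an annotated start of each of the 3 genes on chromosome 2 are shown because the neighbours Il1a and Il1b fell together while Il1rn rose. The starts used for Il1a and Il1b, at 129309972 and 129371139, lie inside the gene spans given above, and so does part of each window. The sequences are from RefSeq, 5′ to 3′ on the strand of the gene, with every match to the motifs searched in capitals.
Il1a, chr2:129309973-129310222, minus strand: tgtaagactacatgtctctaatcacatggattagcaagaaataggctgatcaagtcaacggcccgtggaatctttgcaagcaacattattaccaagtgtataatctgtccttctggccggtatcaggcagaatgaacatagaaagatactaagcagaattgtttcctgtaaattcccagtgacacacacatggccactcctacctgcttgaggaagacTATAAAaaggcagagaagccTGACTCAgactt
Il1b, chr2:129371140-129371389, minus strand: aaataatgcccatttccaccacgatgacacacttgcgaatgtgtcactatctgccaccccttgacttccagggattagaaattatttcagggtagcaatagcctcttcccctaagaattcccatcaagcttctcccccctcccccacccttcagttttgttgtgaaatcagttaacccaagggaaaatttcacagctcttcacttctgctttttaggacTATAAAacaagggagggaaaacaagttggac
Il1rn, chr2:24336610-24336859, plus strand: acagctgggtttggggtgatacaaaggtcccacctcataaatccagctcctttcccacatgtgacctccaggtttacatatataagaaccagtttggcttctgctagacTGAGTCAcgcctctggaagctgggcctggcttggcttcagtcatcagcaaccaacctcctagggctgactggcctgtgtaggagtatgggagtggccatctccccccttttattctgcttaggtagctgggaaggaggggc
Each of 4 motifs was searched on both strands in the 250 bases before each of 32851 annotated starts. They were the TATA box (TATAAA), AP-1 (TGANTCA), C/EBP (TTGCNNAA) and the NF-kappaB consensus (GGGRNYYYCC). N stands for any base, R for A or G and Y for C or T. Sites that differ from these letters or lie further from the start were not searched. TATAAA stood 32 to 27 bases before the start of Il1a and 31 to 26 bases before that of Il1b, and 12.4% of all starts hold it. The window of Il1rn held no TATAAA. AP-1 letters were found 12 to 6 bases before the start of Il1a and 141 to 135 bases before that of Il1rn, against 6.75% of all starts. No match to the other 2 motifs, which 9.56% (C/EBP) and 5.00% (NF-kappaB) of starts hold, was present in these windows, and no 2 matches overlapped. RefSeq gives Il1rn 2 further starts, at 24345291 and 24345371, whose windows held no match to any of the 4 motifs. One FPKM value per gene does not divide the transcripts of Il1rn between its starts.

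The agonists fell and the antagonist rose. By limma on log2(FPKM + 1), 4 of the 6 genes passed at an adjusted p below 0.05, 3 lower and 1 higher in sulfatide. Of the 10405 genes tested 18.7% passed, 10.4% lower and 8.31% higher. The 6 genes were chosen with earlier results of these data known, so their share of calls is not independent of that choice. Higher genes made up 44.5% of all calls, but 23.4% once the values were rescaled to TPM (the same sum in each library), and the 4 genes kept their direction and call under that scaling. Log2 fold changes below are sulfatide minus vehicle with their standard error, and folds are ratios of group mean FPKM.

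Values are given in the order of the replicate numbers. Il1b was at 2361, 2757 and 1641 FPKM in the vehicle libraries and at 202, 304 and 312 FPKM in the sulfatide libraries. The lowest vehicle library was far above the highest sulfatide library. Its mean level was 8.26-fold lower in sulfatide (log2 fold change -3.04 ± 0.21, adjusted p = 5.26e-05 by limma). In the vehicle libraries Il1b held rank 36 to 87 by FPKM among all 22800 genes, and in the sulfatide libraries rank 623 to 939.

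Il1a, whose product is active without caspase-1 cleavage and is released by damaged cells, was at 171, 229 and 124 FPKM in vehicle and at 9.41, 14.74 and 11.86 FPKM in sulfatide. The groups did not overlap, and as for Il1b, vehicle replicate 3 was the highest library and vehicle replicate 4 the lowest of its group. The mean was 14.6-fold lower in sulfatide (log2 fold change -3.73 ± 0.22, adjusted p = 2.89e-05 by limma). Its rank moved from between 824 and 1394 to between 5581 and 6678. The ratio of Il1a to Il1b FPKM was also lower in each sulfatide library: 0.0726, 0.0830 and 0.0758 in the vehicle libraries and 0.0466, 0.0485 and 0.0380 in the sulfatide libraries.

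Il1rn was at 813, 485 and 770 FPKM in vehicle and at 1074, 1418 and 1364 FPKM in sulfatide. Each sulfatide library was above each vehicle library, and vehicle replicate 3, the highest for both agonists, was the lowest for the antagonist. The mean was 1.86-fold higher in sulfatide (log2 fold change 0.92 ± 0.19, adjusted p = 0.0112 by limma). Il1rn held rank 243 to 398 in vehicle and 132 to 187 in sulfatide, so that it stood below Il1b in each vehicle library and above it in each sulfatide library.

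**Figure D1:**
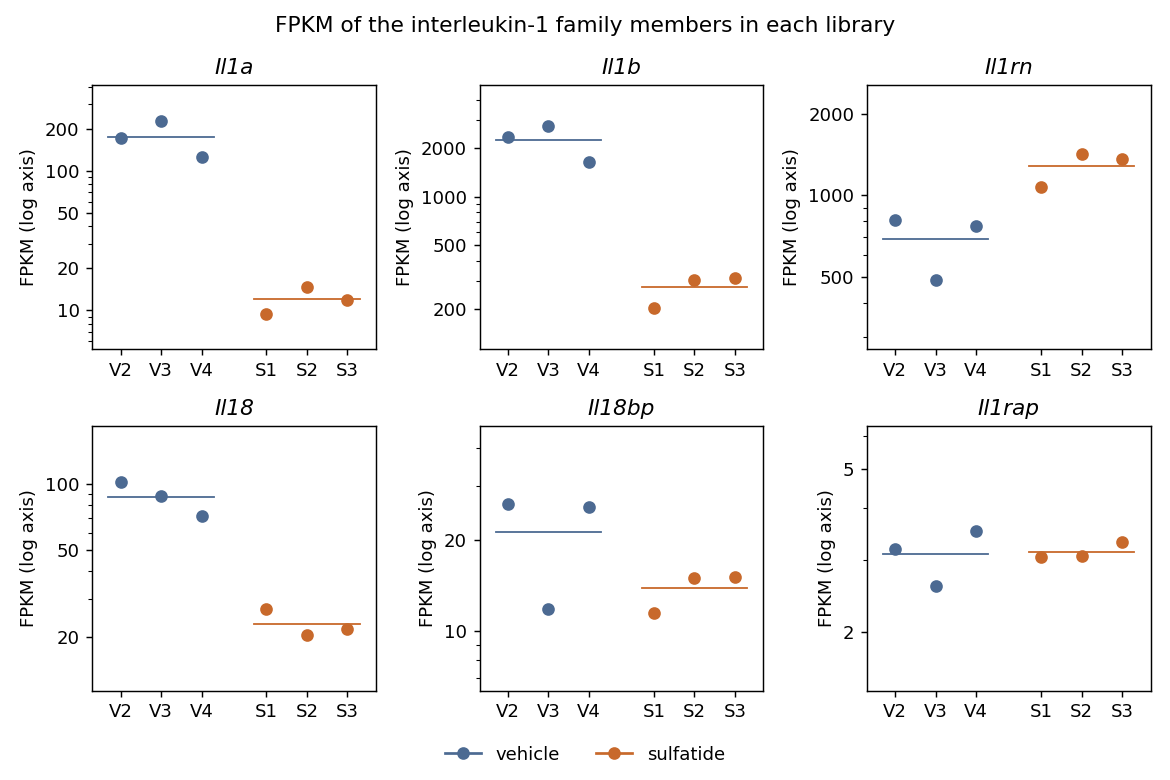
FPKM of the 6 genes in the vehicle (V2 to V4, blue) and sulfatide libraries (S1 to S3, orange), with 1 point per library, lines at the group means and a log axis of its own for each gene. Il1a, Il1b and Il18 are lower and Il1rn is higher in each sulfatide library than in any vehicle library, while the groups overlap for Il18bp and Il1rap.

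Il18 was at 102, 88.3 and 71.8 FPKM in vehicle and at 26.9, 20.6 and 21.8 FPKM in sulfatide. The groups were apart, and the mean was 3.79-fold lower in sulfatide (log2 fold change -1.87 ± 0.15, adjusted p = 8.68e-05 by limma). Vehicle replicate 2, not replicate 3, was the highest library for this gene. Between these 2 caspase-1 substrates, the Il1b to Il18 ratio was 22.9 to 31.2 in vehicle and 7.51 to 14.8 in sulfatide.

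Il18bp, the antagonist of interleukin-18, was at 26.3, 11.78 and 25.6 FPKM in vehicle and at 11.44, 14.9 and 15.1 FPKM in sulfatide. Vehicle replicate 3 lay within the range of the sulfatide libraries, and the difference did not pass (log2 fold change -0.51 ± 0.27, 95% interval -1.12 to 0.09, adjusted p = 0.212 by limma). Without vehicle replicate 3 the log2 fold change was -0.87 and the adjusted p 0.00261, and with array weights they were -0.68 and 0.0268. Its fold change was below 0 under each of the 14 alternatives run, opposite in sign to that of Il1rn.

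Il1rap, the accessory chain that both agonists need, was at 3.18, 2.60 and 3.52 FPKM in vehicle and at 3.05, 3.06 and 3.32 FPKM in sulfatide. The groups overlapped (log2 fold change 0.02 ± 0.13, adjusted p = 0.926 by limma). The 95% interval of the difference, -0.27 to 0.31 on the log2(FPKM + 1) scale, covers both directions, and after rescaling to TPM the estimate was -0.06.

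The order of levels differed between the groups. In the vehicle libraries it was Il1b, Il1rn, Il1a, Il18, Il18bp and Il1rap from highest to lowest, and no 2 neighbours in this order overlapped over the 3 libraries. In the sulfatide libraries Il1rn came first, followed by Il1b and Il18. Il18bp and Il1a, at 11.44 to 15.1 and 9.41 to 14.7 FPKM, overlapped, and Il1rap was again the lowest.

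**Figure D2:**
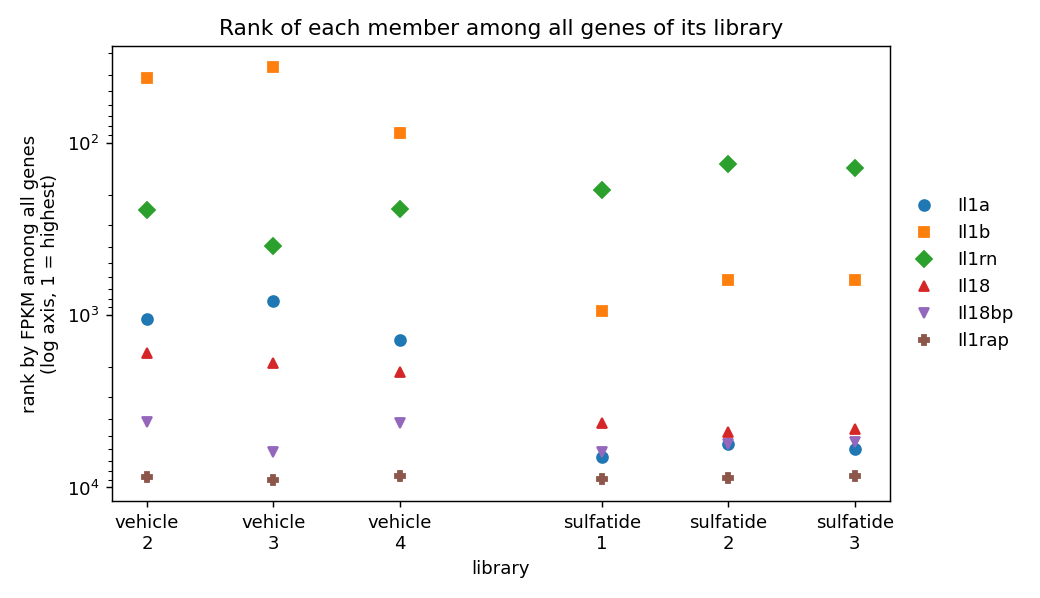
Rank by FPKM of each gene among all 22800 genes of its library (log axis, 1 is the highest level), with 1 point per gene and library. Il1b falls from rank 36 to 87 in vehicle to rank 623 to 939 in sulfatide, and Il1rn moves above it, to rank 132 to 187.

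The ratio of Il1b to Il1rn within a library sets the agonist against its antagonist and does not depend on how the library was scaled. It was 2.91, 5.68 and 2.13 in the vehicle libraries and 0.188, 0.215 and 0.229 in the sulfatide libraries. All vehicle libraries thus held more Il1b than Il1rn FPKM, and all sulfatide libraries less. The vehicle libraries averaged 3.57 ± 1.87 and the sulfatide libraries 0.210 ± 0.0207 (SD, n = 3 each), 17.0-fold lower, and the lowest vehicle ratio was 9.31 times the highest sulfatide ratio. On the log2 scale the groups differed by -3.97 (exact permutation test, 2-sided, p = 0.1, also p = 0.1 after Benjamini-Hochberg adjustment over the 5 ratios computed). A comparison of 3 against 3 libraries cannot give a smaller p, so the test cannot pass 0.05.

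The Il1a to Il1rn ratio was 0.211, 0.471 and 0.161 in vehicle and 0.00876, 0.0104 and 0.00870 in sulfatide, 30.3-fold lower on average. The Il18 to Il18bp ratio was 3.89, 7.50 and 2.81 in vehicle and 2.35, 1.38 and 1.45 in sulfatide. Its groups were close, with the lowest vehicle ratio 1.20 times the highest sulfatide ratio, and Il18 exceeded Il18bp in all 6 libraries. The difference in log2 ratio was -4.77 for Il1a to Il1rn, -1.38 for Il18 to Il18bp, -0.80 for Il1a to Il1b and -1.13 for Il1b to Il18. All 5 ratios were lower in each sulfatide library than in any vehicle library, and each gave an exact permutation p = 0.1, the smallest possible. Vehicle replicate 3 had the highest value of all 5 ratios.

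**Figure D3:**
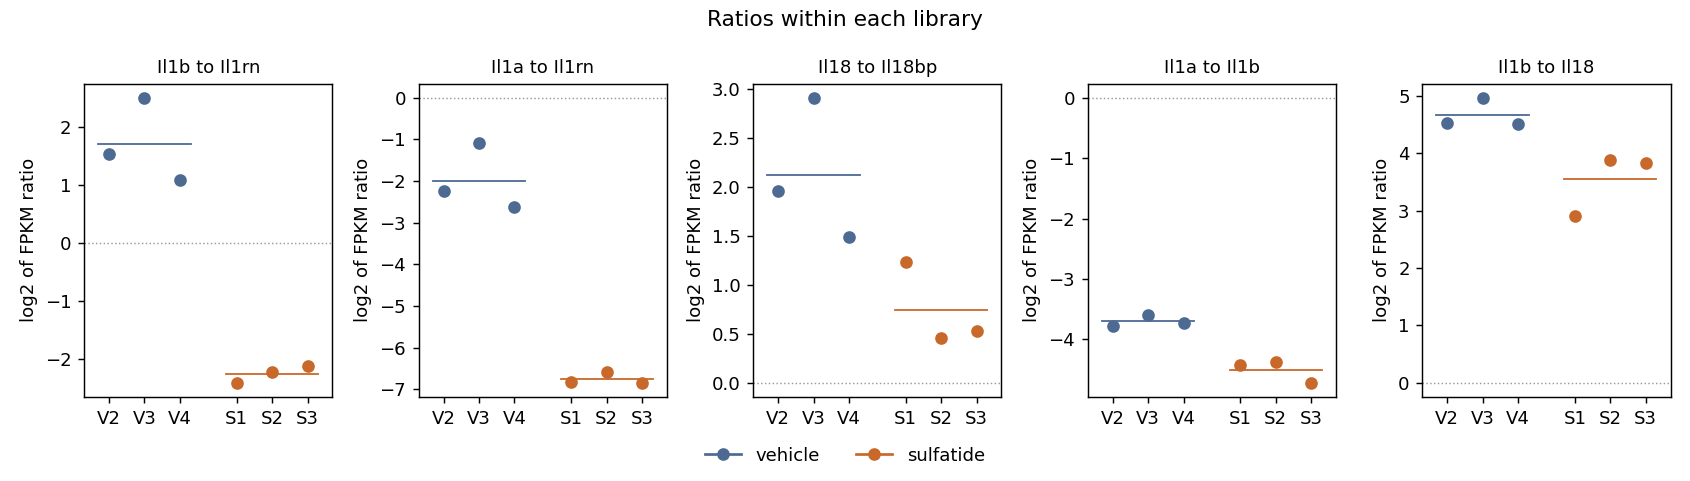
Log2 of the ratio of FPKM of 2 genes within each library, in vehicle (V2 to V4, blue) and sulfatide (S1 to S3, orange) libraries, with lines at the means of the log2 values and a dotted line at equal levels. The Il1b to Il1rn ratio lies above the dotted line in the 3 vehicle libraries and below it in the 3 sulfatide libraries.

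Among 10 symbols for the other ligands of the family, 6 were in the table. Il36a, Il36b, Il36g and Il36rn were not, but they are other names of Il1f6, Il1f8, Il1f9 and Il1f5, which were. The 2 genes tested were both of interleukin-36, which signals through Il1rl2 and the chain encoded by Il1rap. Il1f9, the symbol in the table for interleukin-36 gamma (Il36g), rose from 27.8, 22.9 and 21.8 FPKM in vehicle to 35.0, 59.3 and 35.7 FPKM in sulfatide (log2 fold change 0.78 ± 0.19). It passed by limma (adjusted p = 0.0243), but not when vehicle replicate 4 was left out (0.0836) or with no filter on low values (0.0639). Il1f6, interleukin-36 alpha, was at 7.84, 8.15 and 10.73 FPKM in vehicle and at 13.1, 12.1 and 10.94 FPKM in sulfatide, and did not pass (log2 fold change 0.40 ± 0.14, adjusted p = 0.0673 by limma). It passed when vehicle replicate 4 was left out (adjusted p = 0.0312) and with array weights (0.0256). Both genes lie near Il1rn on chromosome 2, Il1f9 at 24186476 to 24193567 and Il1f6 at 24215417 to 24225701. Il1f5, Il1f8 and Il1f10, in the same region, were listed at 0 in all 6 libraries. Il33, an alarmin of the family, was at 0.83 to 1.74 FPKM in vehicle and at 0.09 to 0.33 FPKM in sulfatide, too low to be tested.

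Of 9 receptor genes 2 were tested and none passed. Il1r1, the signalling receptor of both agonists, did not exceed 2.04 FPKM in any library (log2 fold change 0.18 ± 0.27, adjusted p = 0.676 by limma), and the decoy receptor Il1r2 did not exceed 0.61 FPKM. Il1rl2, the interleukin-36 receptor, was at 6.22, 5.08 and 5.74 FPKM in vehicle and at 1.96, 5.16 and 3.01 FPKM in sulfatide (-0.67 ± 0.23 on the log2 scale, with an adjusted p of 0.0759 that became 0.00886 once sulfatide replicate 2 was dropped and 0.00827 with array weights). Il18r1, the ligand-binding chain for interleukin-18, was listed at 0 in all libraries, and its partner Il18rap was at 0.12 to 0.20 FPKM in vehicle and 0.42 to 0.62 in sulfatide. The inhibitory receptor Sigirr was at 0.35 to 0.68 and 0.73 to 1.16 FPKM, and the interleukin-33 receptor Il1rl1 did not exceed 0.13 FPKM.

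The pathway lists were chosen with earlier results of these data known. Over all of them together 32 of 66 tested genes were lower in sulfatide and 7 higher, against 10.4% and 8.31% over all genes. Without vehicle replicate 2 the counts were 19 and 4 of 64, against 603 and 263 of all 10295 genes tested. Without sulfatide replicate 3 they were 21 and 4 of 66, against 683 and 439 of 10326. Of the 18 tested genes for processing and release of these cytokines, 8 were lower and 2 higher (10.4% and 8.31% over all genes), with a median log2 fold change of -0.34 against 0.04 over all genes tested. Nlrp3, the inflammasome sensor, fell from 122 ± 15.7 to 49.4 ± 6.54 FPKM (SD, n = 3 each, adjusted p = 0.000217 by limma), and the pyrin gene Mefv from 67.9 ± 12.0 to 32.2 ± 4.10. Capn2, a subunit of the calpain proteases that can cleave the interleukin-1 alpha precursor, fell from 42.5 ± 4.85 to 24.4 ± 6.27 FPKM (adjusted p = 0.0617 without vehicle replicate 2). Pycard, the adaptor that joins sensors to caspase-1, rose from 227 ± 23.3 to 323 ± 33.4 FPKM (adjusted p = 0.0119, and 0.0663 and 0.0537 without vehicle replicate 2 or sulfatide replicate 3).

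Casp1 fell from 384 ± 53.2 to 281 ± 14.7 FPKM (SD, n = 3 each), a log2 fold change of -0.44 ± 0.11 against -3.04 for its substrate Il1b. Its adjusted p of 0.0214 by limma became 0.0825 when vehicle replicate 2 was left out, and 0.0557 and 0.0655 for sulfatide replicate 2 or 3. Gsdmd, whose cleaved product forms the pore through which mature interleukin-1 beta leaves the cell, fell from 227 ± 21.9 to 167 ± 17.5 FPKM (adjusted p = 0.0218). That p rose to 0.105 when vehicle replicate 2 was left out, 0.0737 for vehicle replicate 4, 0.0582 for sulfatide replicate 1 and 0.0548 for sulfatide replicate 2. Casp8 fell by a like amount (log2 fold change -0.45 ± 0.11, adjusted p = 0.0208) and its p rose to 0.0968 and 0.0715 when vehicle replicate 2 or 4 was left out and to 0.0672 and 0.0637 for sulfatide replicate 1 or 3.

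Downstream of the receptor, 6 of 17 tested MyD88 and IRAK signalling genes were lower and 1 higher (10.4% and 8.31% over all genes, median -0.29). Irak2, a kinase of the receptor complex, fell from 52.9 ± 1.37 to 21.96 ± 1.36 FPKM (adjusted p = 6.12e-05 by limma), and Peli1, a ubiquitin ligase of the same complex, from 60.8 ± 3.02 to 34.6 ± 1.59. The kinase subunit Ikbkb fell from 64.1 ± 3.19 to 45.7 ± 2.82 FPKM. Its partner Ikbkg also fell (28.1 ± 5.20 to 16.1 ± 3.31 FPKM) with an adjusted p of 0.0159 that became 0.0768 and 0.0608 when vehicle replicate 2 or 4 was left out and 0.0528 for sulfatide replicate 3. Myd88, the adaptor, fell from 252 ± 13.9 to 205 ± 5.10 FPKM (adjusted p = 0.0337, and 0.141 or 0.103 when vehicle replicate 2 or 4 was left out, 0.116 or 0.111 for sulfatide replicate 1 or 3). The inhibitory kinase Irak3 was at 107 ± 2.89 and 86.6 ± 17.9 FPKM (adjusted p = 0.127, 0.0111 without sulfatide replicate 2 and 0.0157 with array weights).

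Of 7 tested transcription factors that act on Il1b, 4 were lower and none higher (10.4% and 8.31% over all genes, median -0.39). The NF-kappaB subunit genes Nfkb1 (204 ± 15.2 to 85.0 ± 6.08 FPKM, adjusted p = 7.13e-05 by limma) and Rel (7.27 ± 0.476 to 3.24 ± 0.147 FPKM) fell. Rela (112 ± 4.68 to 85.3 ± 6.36 FPKM) and Cebpb (1249 ± 153 to 865 ± 101 FPKM) also fell. The adjusted p of Rela, 0.0160, became 0.0626 and 0.0572 when vehicle replicate 2 or 4 was left out and 0.0640 and 0.0633 for sulfatide replicate 1 or 3. That of Cebpb, 0.0146, became 0.0502 and 0.0588 for sulfatide replicate 1 or 3. Spi1, which encodes the myeloid factor PU.1, was at 1375 ± 39.8 and 1375 ± 68.8 FPKM (log2 fold change -0.00 ± 0.08).

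Of 20 tested genes that interleukin-1 induces, 14 were lower and 3 higher (10.4% and 8.31% over all genes, median -0.99). Many of them are induced by other signals through NF-kappaB as well. Il6 was at 62.2, 73.5 and 14.2 FPKM in vehicle and did not exceed 0.62 FPKM in sulfatide (log2 fold change -4.78 ± 0.50, adjusted p = 0.000318 by limma). It passed the filter through the vehicle libraries alone, and leaving out any of them removed it from the test. With no filter its adjusted p was 0.00366 by limma. The chemokine genes Cxcl2 (1213 ± 252 to 182 ± 60.2 FPKM) and Ccl2 (257 ± 66.6 to 60.0 ± 8.01 FPKM) and the NF-kappaB inhibitor Tnfaip3 (67.5 ± 5.01 to 25.3 ± 2.41 FPKM) fell. Against that direction, the acute phase gene Saa3 (28515 ± 717 to 82913 ± 3317 FPKM), the siderophore-binding protein gene Lcn2 and the metalloreductase gene Steap4 (1.34 ± 0.168 to 12.50 ± 1.09 FPKM) rose. The genes Ifng, Csf2, Il13 and Gzmb, taken as induced by interleukin-18, were all too low to be tested, and Ifng and Il13 were listed at 0 in all 6 libraries.

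**Figure D4:**
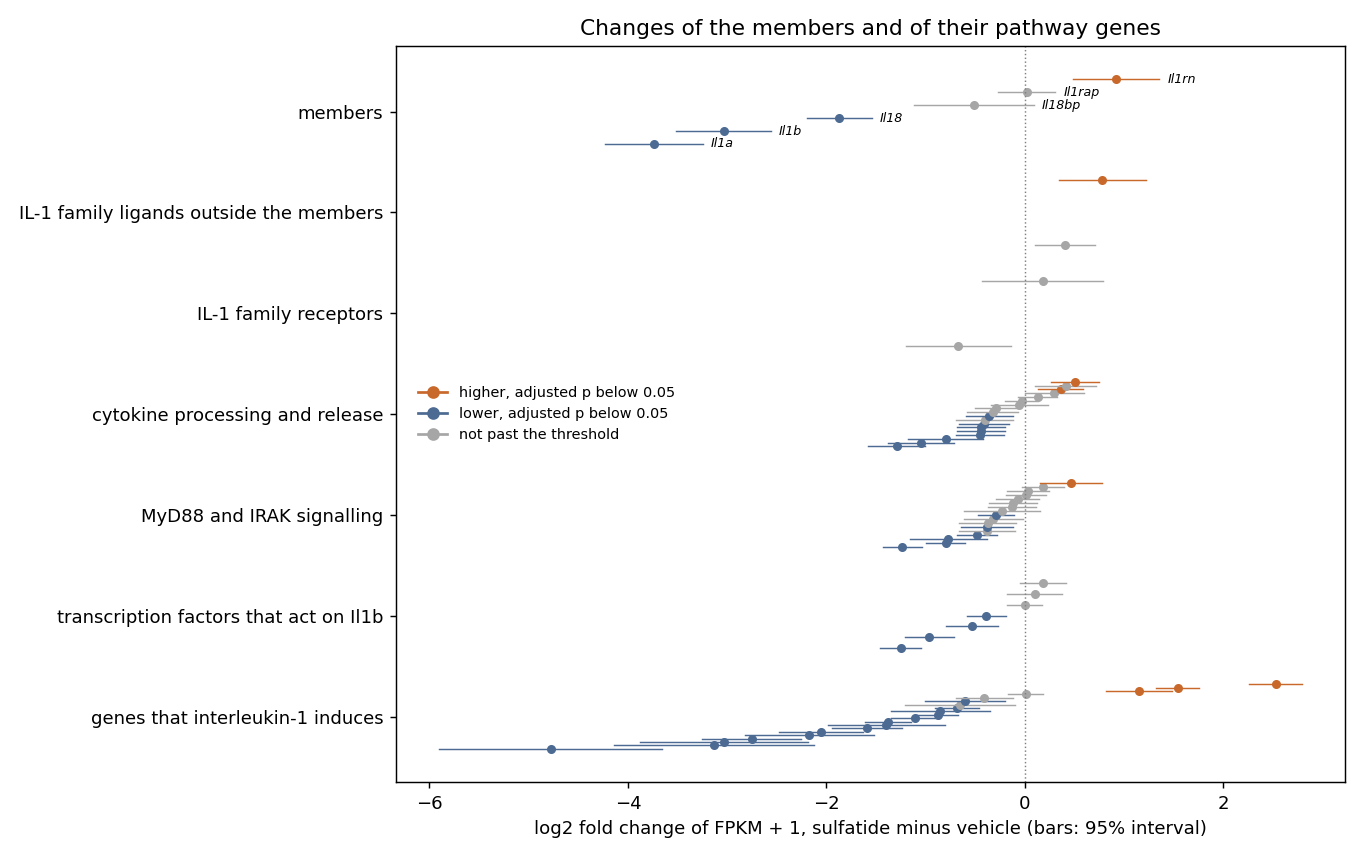
Log2 fold change (sulfatide minus vehicle, log2(FPKM + 1) scale, x axis) of the 6 genes and of the tested genes of 6 pathway lists (rows), with 1 point per gene and bars for the 95% interval from limma. Il1a and Il1b lie at -3.73 and -3.04, further from 0 than any tested gene for processing, signalling or transcription, and the genes that interleukin-1 induces range from -4.78 for Il6 to 2.53 for Steap4. Il6 passed the filter through its vehicle libraries alone.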

How the data were processed

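Libraries were made from poly(A)-selected RNA with the dUTP strand-specific method and sequenced as paired-end reads, per the labels' protocols, and were processed on mm10 (submitters' processing notes). Which aligner, counting program, strand setting and annotation the authors used is not given in the sources used here. The authors deposited FPKM values rounded to 2 decimals for 22800 gene symbols. Columns were matched to samples by title, and 3 value columns that matched no sample were not used. FPKM are not counts, so no count model was run, and absolute depth is unknown. Relative depth was taken from the most frequent FPKM ratio between libraries over genes at 0.1 to 1.5 FPKM.

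Genes at 1 FPKM or more in at least 3 libraries were tested on log2(FPKM + 1) with limma 3.58.1 in R 4.3.3 (eBayes with an intensity trend, 2-sided, Benjamini-Hochberg over all genes tested, called below 0.05). Fold changes on this scale understate those of low genes. The method was also run on simulated data in which genes were drawn independently, so that run does not cover genes that vary together. Ratios used FPKM without a pseudocount and exact permutation tests (scipy 1.17.1). The genes, the 7 pathway lists and the cell markers were chosen with earlier results of these data known. Named were the 6 genes, tested ligands and receptors, up to 5 called genes of smallest p per other list, and a fixed set (Il1r1, Il1r2, Il1rl1, Il18r1, Il18rap, Sigirr, Il33, Casp1, Nlrp3, Gsdmd, Myd88, Irak3, Il6 and Ifng). Spi1 and Lcn2, the symbols listed at 0, the genes taken as induced by interleukin-18 and the cell markers lie outside this rule and were named after their values were seen. Motifs were also chosen after the data were seen. The labels give no batch.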

Additional observations from a re-analysis of the deposited data

How the results depend on the processing

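Over 14 alternatives (13 for Il1rap, which the filter at 5 FPKM removes) Il1a, Il1b, Il18 and Il1rn kept their direction and their call, with log2 fold changes of -3.96 to -3.52, -3.25 to -2.83, -2.11 to -1.75 and 0.69 to 1.15. The adjusted p of Il1rn ranged from 0.00332 (array weights) to 0.0411 (no filter on low values). Il18bp passed without vehicle replicate 3 and with array weights, as given above. Il1rap stayed between -0.07 and 0.11. The number of the 6 genes called was 4 to 5 with 1 library left out. The log2 difference in the Il1b to Il1rn ratio was -4.28 to -3.57, in Il1a to Il1rn -5.09 to -4.32, in Il18 to Il18bp -1.69 to -0.98, in Il1a to Il1b -0.87 to -0.70 and in Il1b to Il18 -1.30 to -0.81, with no change of sign.

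The 1943 genes called (865 higher, 1078 lower) became 3777 (2054 and 1723) with array weights, and the number of higher genes was 522 with no filter and 467 after rescaling to TPM. With 1 library left out, 866 to 2484 genes were called, 263 to 1420 higher and 603 to 1136 lower, and of the pathway genes 19 to 36 were lower and 4 to 6 higher, against 32 and 7 with all libraries. Leaving out vehicle replicate 2 gave 866 calls and leaving out vehicle replicate 4 gave 1143. For sulfatide replicates 1 and 3 the numbers were 1093 and 1122. The labels share only replicate numbers 2 and 3 between groups. With the replicate number as a block, 932 genes were called, 297 higher and 635 lower, the 4 called genes of the family remained, and Il1rn was at 1.15. Casp1, Gsdmd, Casp8, Myd88, Rela and Cebpb lost their calls with this block (adjusted p = 0.0609, 0.154, 0.115, 0.186, 0.137 and 0.0704 by limma). Same-numbered libraries correlated at 0.16 (number 2) and -0.30 (number 3) in their deviations from the group means. With so few shared numbers, these values cannot show whether the libraries were paired. The causes of these shifts were not tested. Over 33 named genes and 454 alternative values, 35 calls were lost, 8 gained and 0 reversed. Unknown depth limits what can be said of genes near 0, such as Il1r2 and Il33.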

Other observations

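Over the 6 libraries, the genes whose log2(FPKM + 1) values ran most closely with those of Il1b were Slc30a6 (Pearson r = 0.999), Adora2b (0.999), Gfi1 (0.997), Il1a (0.997) and Pstpip2 (0.996). These values are a description over 6 libraries that share the group difference. The agonist Il1a is thus the fourth of 10404 other tested genes in likeness to Il1b. Adora2b, which encodes an adenosine receptor, was at 90.9, 100.42 and 83 FPKM in vehicle and at 42.2, 48.2 and 46.9 FPKM in sulfatide. Gfi1, a transcriptional repressor, was at 3.17, 3.34 and 2.21 FPKM in vehicle and did not exceed 0.57 FPKM in sulfatide. Like Il6, Gfi1 passed the filter through the vehicle libraries alone. Slc30a6, a zinc transporter gene, moved with Il1b in order but by little, from 21.3 ± 0.535 to 17.7 ± 0.405 FPKM (SD, n = 3 each), and was not called.

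The genes closest to Il1rn were Bst1 (r = 0.997), Pgpep1 (0.991), Ctsl (0.991), Cacna1d (0.990) and Wfdc21 (0.985), and 4 of these 5 were higher by limma, all but Pgpep1. Bst1, an ectoenzyme of NAD metabolism, was at 218, 150 and 204 FPKM in vehicle and at 257, 310 and 290 FPKM in sulfatide. Wfdc21 was at 19.7, 6.19 and 13.3 FPKM in vehicle and at 28.7, 38.9 and 36.2 FPKM in sulfatide. For all 5 genes, as for Il1rn, vehicle replicate 3 was the lowest of the 6 libraries, and Ctsl was at 1295 FPKM there against 1598 and 1530 in the other vehicle libraries. The genes were picked for their likeness to Il1rn over these same libraries. Their calls and their low values in vehicle replicate 3 therefore follow from the choice and are not separate results.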
